A study of Homo sapiens with 2 samples.

Results

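RNA polymerase I and the factors that turn its transcript into ribosomal subunits were described through 44 genes, chosen by symbol and present in full among the 57485 genes of the deposited tables. The genes fell into 5 roles, with 6 for polymerase I transcription, 6 nucleolar scaffold proteins and regulators, 5 core proteins of small nucleolar ribonucleoproteins (snoRNPs), 8 factors of small subunit processing and 19 of large subunit assembly. RNA came from ARP1, a human multiple myeloma (MM) cell line, carrying a lentivirus with a doxycycline (Dox)-inducible short hairpin RNA (shRNA) against SRD5A1, the type I steroid 5α-reductase. There was 1 library labelled untreated and 1 labelled as treated with Dox, and both carried the lentivirus, so neither a line without the hairpin nor a Dox-treated line without it is part of the comparison. For the Dox-treated library the genotype field reads SRD5A2, while the titles and the series design name SRD5A1, and the dose and duration of Dox for these libraries were not given in the sources used here.

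Ribosome production begins in the nucleolus, where polymerase I copies the ribosomal DNA into a long precursor RNA. SnoRNPs then guide its chemical modification, large processing complexes cut and fold it, and assembly factors escort the precursors of both subunits until export to the cytoplasm. MYC, which drives many genes of this pathway, is highly active in MM, and plasma cells depend on a large protein synthesis capacity. Expression is given as FPKM, fragments per kilobase of effective transcript length and per 1000000 fragments, and a difference is the log2 ratio of the level with Dox to the level without, 0.1 FPKM having been added to each. Every interval is a 95% Clopper-Pearson interval made from expected counts, which covers counting error only. With 1 library per condition no difference has a replicate check, no test was possible, and "2-fold" is a description of size.

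The libraries held 45918570 and 48728927 expected counts without and with Dox, so that 3 counts equal 0.0653 and 0.0616 per 1000000. All 8 plasma cell markers examined were present, at 15.7 to 834 FPKM without Dox and 26.6 to 716 with Dox, whereas CD3D was listed at 0 and no marker of other cell types reported here exceeded 1.93 FPKM. SRD5A1 (ENSG00000145545.11, GRCh38 chromosome 5, 6633343 to 6674386, forward strand), the gene the hairpin targets, went from 1375 counts and 13.04 FPKM without Dox to 3014 counts and 25.9 FPKM with Dox (log2 ratio 0.98, interval 0.89 to 1.08). The RNA of the targeted gene thus went against the knockdown that the hairpin is meant to give. By western blotting, the study reports lower SRD5A1 in ARP1 cells with the hairpin after Dox, which is protein and not RNA. Every direction given here rests on the labels "with Dox" and "without Dox" alone.

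Ribosome biogenesis genes were lower in the library labelled with Dox almost throughout. Of the 44 genes, 42 had a log2 ratio below 0 and 19 (43.2%) were more than 2-fold lower, while 0 were more than 2-fold higher. Over the 14859 genes that reached 1 FPKM in 1 or both libraries, 41.5% had a ratio below 0, 6.41% were more than 2-fold lower and 17.0% were more than 2-fold higher. The median log2 ratio of the 44 genes was -0.91, with a range from -1.78 for RRP9 to 0.17 for DDX21, against 0.15 for all genes tested. Relative to that overall median, 43 of the 44 genes lay below and 24 lay more than 2-fold below, against 9.18% of all genes tested that lay more than 2-fold below it. All 44 genes passed the filter on low values in both libraries, the lowest expected count of any of them being 2419 without Dox and 1054 with Dox. The counting interval lay wholly below 0 for 42 genes, against 32.7% of all genes tested, wholly above 0 for DDX21, and on both sides of 0 for NOB1. Since these genes are well expressed, they were also set against the 7706 protein-coding genes with at least 10 FPKM in 1 library, of which 48.8% lay below 0 and 5.52% were more than 2-fold lower, with a median of 0.02. In bulk RNA, fewer cells of a kind with high ribosome production and less of these RNAs per cell cannot be told apart.

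**Figure D1:**
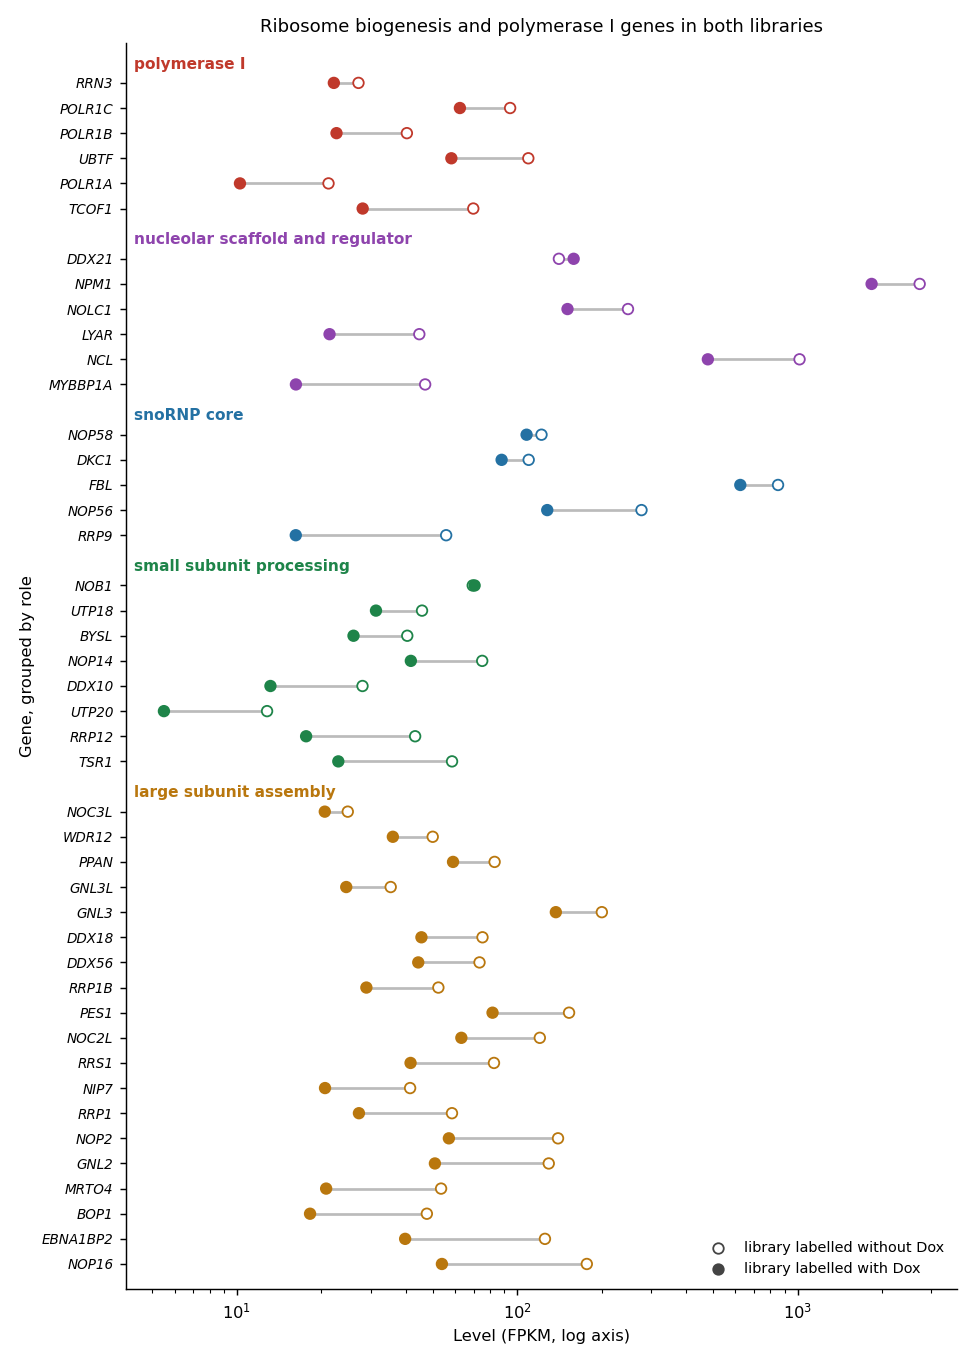
Expression of the 44 genes in the libraries labelled without Dox and with Dox, in FPKM on a log axis, with open points for the library without Dox, filled points for the library with Dox and colours for the 5 roles. The filled point lies to the left of the open point for all genes except DDX21 and NOB1, from UTP20 at 12.8 and 5.5 FPKM to NPM1 at 2727 and 1837 FPKM.

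Together the 44 genes took 560897 of the counts without Dox (1.22%) and 352912 with Dox (0.724%, interval 0.722% to 0.727%). Their summed FPKM went from 8104 to 4935, a log2 ratio of -0.72. The 79 cytosolic ribosomal protein genes, which encode the proteins of the finished subunits, did not share this shift, with a median log2 ratio of 0.04, a range from -0.76 to 0.39 and 0 genes past 2-fold in either direction. Their median was -0.17 with TMM scaling, -0.18 with DESeq2 size factors and -0.11 after centring on the median of all genes, so the sign of their small difference depends on the scaling. The summed FPKM of the 44 genes accordingly equalled 4.69% of that of the ribosomal protein genes without Dox and 2.77% with Dox. Levels within the group spanned a wide range, and NPM1, NCL and FBL alone made up 56.7% of the summed FPKM without Dox and 59.6% with Dox. The order of the levels was largely kept between the libraries (Spearman's rho 0.90 across the 44 genes), and the log2 ratio showed little relation to the level without Dox (rho 0.04) or to transcript length (rho -0.07). These correlations describe genes measured in the same 2 libraries, which are not independent replicates.

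The promoters of these genes were inspected for the letters CACGTG, the E-box bound by MYC with its partner MAX, in RefSeq windows (GRCh38.p14) of 250 bases before to 50 bases after the start. A window was matched for 36 of the 44 genes, and 16 of them (44.4%) held the E-box letters, which read the same on both strands. The same letters were found in 8.77% of all 27305 genes of the RefSeq table, in 13.9% of the 6200 matched genes with at least 10 FPKM, and in 6.35% of the 63 matched ribosomal protein genes. In 15 of the 16 genes the E-box lay within 50 bases of the start, a limit chosen after the positions had been seen, which held for 41.7% of the matched genes, 6.08% of the genes with at least 10 FPKM and 3.51% of all genes. By role, the E-box was found in 3 of 5 matched scaffold genes, 2 of 4 snoRNP genes, 4 of 7 small subunit genes, 7 of 15 large subunit genes and 0 of 5 polymerase I genes. The cyclic AMP response element TGACGTCA, which contains no E-box, was found in DDX10 and RRP1, 5.56% of the matched genes, against 2.25% of all genes, 4.34% of the genes with at least 10 FPKM and 4.76% of the ribosomal protein genes.

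Stretches of 50 bases before to 30 bases after the start are printed below 5′ to 3′ with the E-box in capitals. First come 4 genes that were more than 2-fold lower with Dox and then 3 that were not. They were picked from the 11 genes whose E-box fell inside such a stretch, the 3 being those with the smallest differences among the 11. The coordinates are chr3:51941875-51941954 (reverse strand) for RRP9, chr1:19251755-19251834 (forward) for MRTO4, chr1:37595908-37595987 (reverse) for GNL2, chr12:101280055-101280134 (forward) for UTP20, chr19:39846350-39846429 (reverse) for FBL, chr10:94362910-94362989 (reverse) for NOC3L and chr10:68956597-68956676 (forward) for DDX21.
RRP9: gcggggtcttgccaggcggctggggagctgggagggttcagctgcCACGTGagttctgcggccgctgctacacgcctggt
MRTO4: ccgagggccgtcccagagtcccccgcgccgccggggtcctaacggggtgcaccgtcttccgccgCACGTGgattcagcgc
GNL2: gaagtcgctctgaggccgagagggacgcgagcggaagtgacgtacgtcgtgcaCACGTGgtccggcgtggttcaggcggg
UTP20: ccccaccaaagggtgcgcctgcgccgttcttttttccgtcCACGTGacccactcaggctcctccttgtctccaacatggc
FBL: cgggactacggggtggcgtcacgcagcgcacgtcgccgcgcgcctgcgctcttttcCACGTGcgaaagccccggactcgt
NOC3L: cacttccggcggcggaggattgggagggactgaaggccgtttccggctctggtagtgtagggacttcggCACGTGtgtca
DDX21: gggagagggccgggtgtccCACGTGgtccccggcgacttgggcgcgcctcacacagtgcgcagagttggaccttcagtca

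Counted from the start, the first base of the E-box was at -5 in RRP9, 15 in MRTO4, 4 in GNL2, -10 in UTP20, 7 in FBL, 20 in NOC3L and -31 in DDX21. The 16 genes with an E-box had a median log2 ratio of -0.98 (range -1.78 to 0.17), and 8 of the 16 were more than 2-fold lower. The 20 matched genes without one had a median of -0.87 (range -1.71 to 0.02), and 8 of the 20 were more than 2-fold lower. Of all genes tested, 6.41% were more than 2-fold lower. A relation between holding the letters and the size of the difference was not tested. MYC itself, named here outside the rule for named genes, had the higher level in the Dox-labelled library, at 639 FPKM against 456 (log2 ratio 0.49, interval 0.47 to 0.50), and MAX was lower, at 65.9 FPKM against 101 (log2 ratio -0.62). These are RNA levels, and binding of MYC at any of these promoters was not measured.

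**Figure D2:**
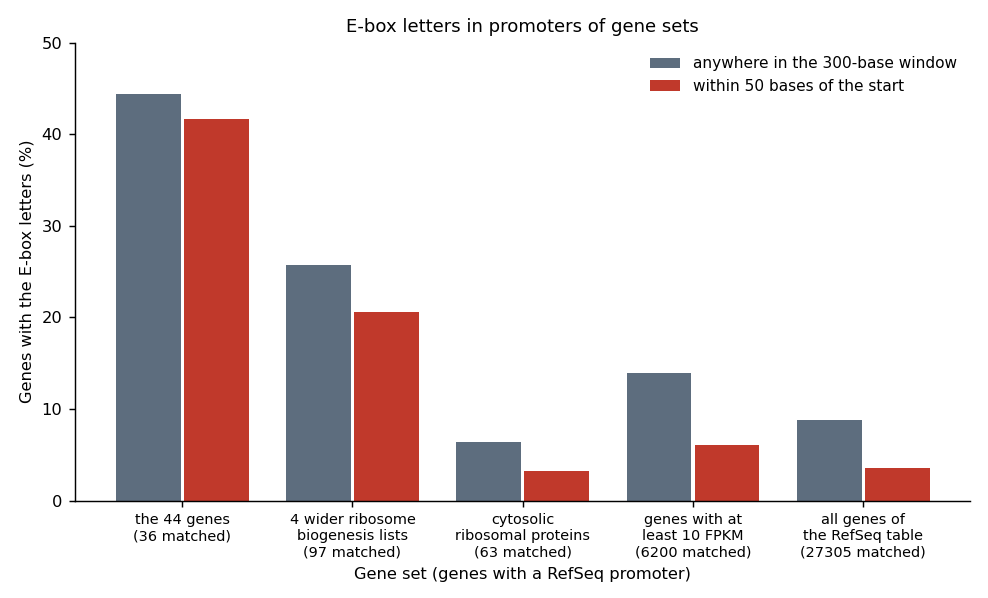
Percent of genes with a matched RefSeq promoter that hold the E-box letters, anywhere in the 300-base window (grey) or within 50 bases of the start (red), for 5 gene sets. The bars of the 44 genes, at 44.4% and 41.7%, stand above those of the wider ribosome biogenesis lists (25.8% and 20.6%), and those of the ribosomal protein genes are at 6.35% and 3.17%.

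All 6 polymerase I genes were lower in the library labelled with Dox, with a median log2 ratio of -0.87, and 2 of them were more than 2-fold lower. For comparison with the counts of each role, 41.5% of all genes tested lay below 0 and 6.41% were more than 2-fold lower. TCOF1 (chromosome 5), which encodes treacle, a nucleolar phosphoprotein needed for ribosomal DNA transcription, had the largest difference of the 6, at 69.8 FPKM without Dox and 28.1 with Dox (log2 ratio -1.31, interval -1.35 to -1.26). POLR1A (ENSG00000068654.15, GRCh38 chromosome 2, 86020216 to 86106155, reverse strand), the largest catalytic subunit, was at 21.3 FPKM without Dox and 10.3 with Dox (log2 ratio -1.04). POLR1B, which forms the active site with it, was at 40.4 and 22.7 FPKM (log2 ratio -0.83). The catalytic core was therefore lower in both of its large subunits, and their counting intervals lay apart. UBTF, the factor that holds ribosomal DNA in an open state and recruits the initiation complex, was at 109.6 FPKM without Dox and 58.3 with Dox (log2 ratio -0.91). POLR1C, a subunit that polymerase III also uses, was at 94.4 and 62.5 FPKM (log2 ratio -0.59). RRN3, the initiation factor that makes polymerase I competent to start, had the smallest difference of the 6, at 27.2 and 22.2 FPKM (log2 ratio -0.29, interval -0.36 to -0.22).

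The 38 genes outside the polymerase I role are called processing and assembly genes here, and they include the 6 scaffold proteins and regulators. Their median log2 ratio was -0.92, with 36 below 0 and 17 more than 2-fold lower, against 41.5% and 6.41% of all genes tested. The polymerase I median lay 0.05 above it. When counts per 1000000 of the library total (CPM) were used with no correction for transcript length, the polymerase I median was -0.61 and the difference between the medians 0.28.

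Among the scaffold proteins and regulators, 5 of 6 genes were lower and 3 were more than 2-fold lower, with a median log2 ratio of -0.89. MYBBP1A (ENSG00000132382.14, GRCh38 chromosome 17, 4538897 to 4555631, reverse strand), a nucleolar protein that associates with polymerase I, was at 47.0 FPKM without Dox and 16.3 with Dox (log2 ratio -1.53, interval -1.59 to -1.46). NCL (nucleolin), a histone chaperone and RNA-binding protein of the nucleolus, was at 1017 FPKM without Dox and 479 with Dox (log2 ratio -1.09). LYAR, a zinc finger protein of the nucleolus, was at 44.8 and 21.4 FPKM (log2 ratio -1.06). NCL and LYAR thus had similar ratios at very different levels. NOLC1, a chaperone of snoRNPs, was at 249 and 151 FPKM (log2 ratio -0.72). NPM1 (nucleophosmin), the scaffold of the granular outer layer of the nucleolus and the most abundant of the 44 RNAs, was at 2727 FPKM without Dox and 1837 with Dox (log2 ratio -0.57). DDX21, an RNA helicase that couples transcription to processing, was the exception, at 141 FPKM without Dox and 159 with Dox (log2 ratio 0.17, interval 0.15 to 0.20), and its ratio was -0.03 with TMM scaling and -0.04 with DESeq2 size factors.

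All 5 snoRNP core genes were lower and 2 were more than 2-fold lower, with a median log2 ratio of -0.45. RRP9 (ENSG00000114767.6, GRCh38 chromosome 3, 51933430 to 51941941, reverse strand), the protein particular to the U3 snoRNP that starts small subunit processing, had the largest difference of all 44 genes, at 55.8 FPKM without Dox and 16.2 with Dox (log2 ratio -1.78, interval -1.88 to -1.68). NOP56, a core protein of every box C/D snoRNP, was at 278 and 128 FPKM (log2 ratio -1.12). NOP58, which sits opposite NOP56 in the same particle, was at 122 and 108 FPKM (log2 ratio -0.18). These partners differed by 0.94 on the log2 scale, with counting intervals apart. The mean transcript length of NOP56 was 16.7% longer with Dox, which the intervals do not cover. In CPM the ratios were closer, at -0.85 for NOP56 and -0.21 for NOP58. FBL (fibrillarin), the methyltransferase of that particle, was between them at 852 and 625 FPKM (log2 ratio -0.45). DKC1 (dyskerin), the pseudouridine synthase of the box H/ACA particles and a telomerase component, was at 109.96 and 88.1 FPKM (log2 ratio -0.32). SnoRNAs encoded inside the introns of these 44 genes could not be followed, since 20 were listed and 0 had a count in either library. The RNA sequenced was poly(A)-selected.

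In small subunit processing, 7 of 8 genes were lower and 4 were more than 2-fold lower, with a median log2 ratio of -0.96, the lowest of the 5 roles. TSR1, a factor resembling a GTPase that keeps the immature small subunit inactive, was at 58.6 FPKM without Dox and 23.0 with Dox (log2 ratio -1.34, interval -1.39 to -1.30). RRP12, which takes part in export of the precursors, was at 43.3 and 17.7 FPKM (log2 ratio -1.29). UTP20, a large scaffold protein of the small subunit processome, had the lowest level of the 44 genes at 12.8 and 5.5 FPKM (log2 ratio -1.21). Factors of early and of late small subunit maturation were thus among the more than 2-fold lower genes. DDX10, an RNA helicase of the processome, was at 28.1 and 13.2 FPKM (log2 ratio -1.08), and NOP14, a structural component, at 75.1 and 41.8 FPKM (log2 ratio -0.84). BYSL (bystin) was at 40.6 and 26.1 FPKM (log2 ratio -0.63), and UTP18, a processome subunit that recruits the exosome helicase, at 45.8 and 31.4 FPKM (log2 ratio -0.54). NOB1, the nuclease that makes the last cut of the small subunit RNA, stood apart with 69.5 FPKM without Dox and 70.5 with Dox (log2 ratio 0.02, interval -0.04 to 0.08). Its ratio was -0.19 with TMM scaling, -0.20 with DESeq2 size factors and -0.13 when centred on the median of all genes tested.

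**Figure D3:**
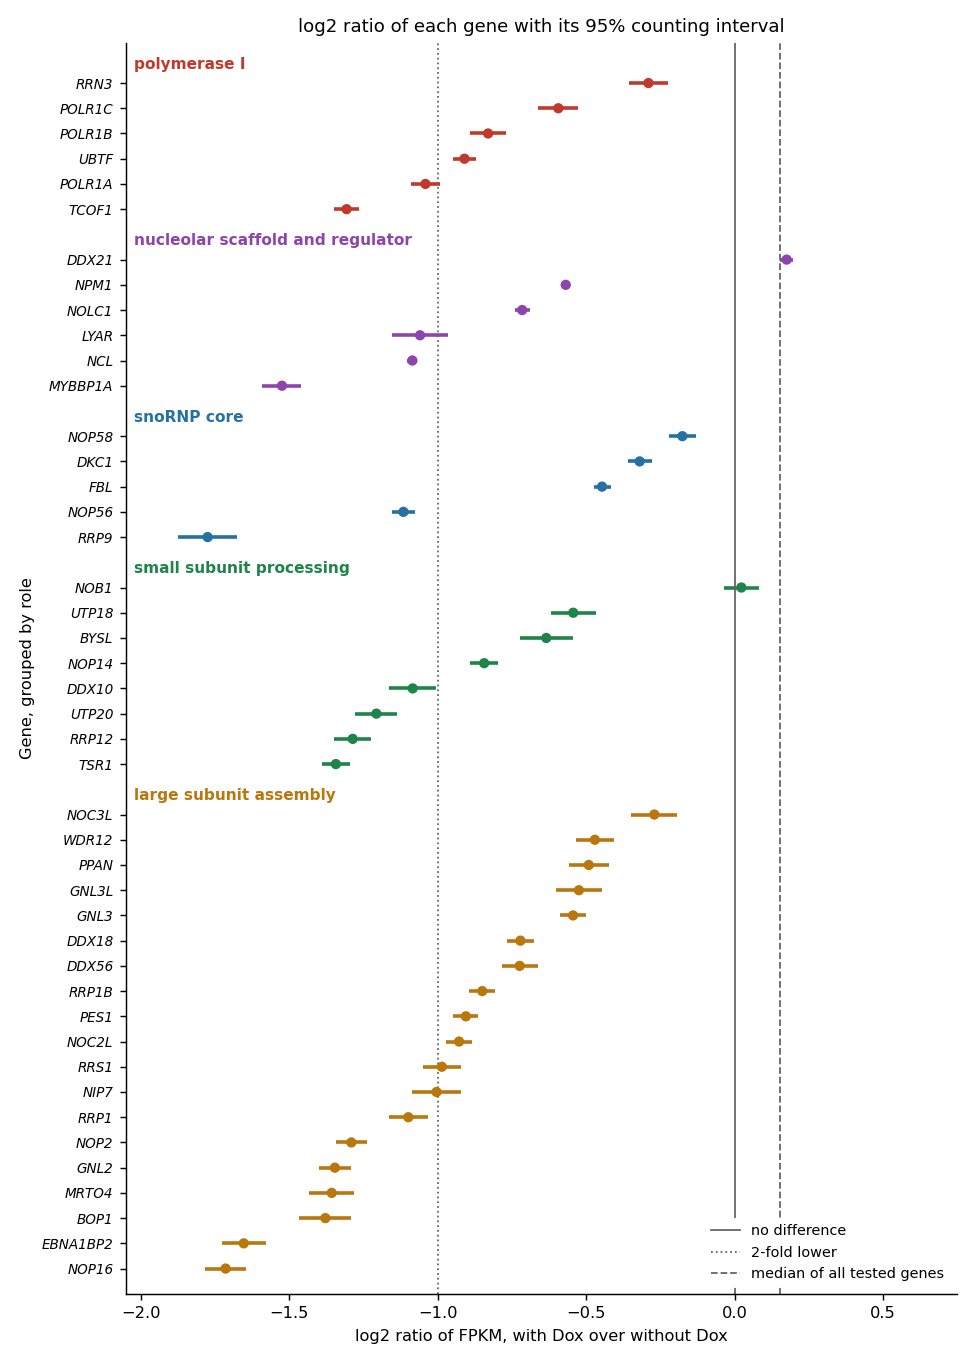
Log2 ratio with Dox over without Dox for each of the 44 genes, ordered within the 5 roles, with horizontal lines for the 95% counting intervals and a dashed line at the median of all genes tested. The 42 genes left of 0 run from RRP9 at -1.78 to NOP58 at -0.18, and NOB1 and DDX21 lie at 0.02 and 0.17.

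All 19 large subunit assembly genes were lower in the library labelled with Dox, with a median log2 ratio of -0.93 and 8 more than 2-fold lower. NOP16 (ENSG00000048162.20, GRCh38 chromosome 5, 176383938 to 176388975, reverse strand), an early assembly factor, was at 177 FPKM without Dox and 53.9 with Dox (log2 ratio -1.71, interval -1.78 to -1.65). EBNA1BP2, a nucleolar scaffold of the early precursor, was at 126 and 39.9 FPKM (log2 ratio -1.65). MRTO4, which holds the place of the ribosomal stalk protein until late in assembly, was at 53.6 and 20.8 FPKM (log2 ratio -1.36). The remaining genes of the 8 were BOP1, GNL2, NOP2, RRP1 and NIP7. GNL2, a GTPase of nuclear maturation, was at 129.7 and 50.9 FPKM (log2 ratio -1.35), and NOP2, an RNA cytosine methyltransferase and proliferation antigen, at 139.9 and 57.1 FPKM (log2 ratio -1.29). RRP1, an early assembly factor, was at 58.6 and 27.3 FPKM (log2 ratio -1.10). NIP7, which works on early precursors, lay just past 2-fold at 41.5 and 20.7 FPKM (2.01-fold lower), and RRS1, which helps load the 5S particle, just short of it at 82.7 and 41.7 FPKM (log2 ratio -0.99). The counting intervals of both included 2-fold, as did those of POLR1A and LYAR.

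Subunits of one complex and members of one gene family often differed from each other. In the PeBoW complex, which is needed for maturation of the large subunit RNAs, BOP1 was at 47.7 and 18.3 FPKM (log2 ratio -1.38), PES1 at 153 and 81.7 FPKM (log2 ratio -0.91) and WDR12 at 50.0 and 36.04 FPKM (log2 ratio -0.47). Each pair of these had counting intervals apart, and BOP1 and WDR12 differed by 0.91 on the log2 scale. Of the nucleostemin family of nucleolar GTPases, GNL3 (nucleostemin) was at 200.5 and 137 FPKM (log2 ratio -0.54) and GNL3L at 35.4 and 24.6 FPKM (log2 ratio -0.52), with overlapping intervals, while GNL2 lay 0.80 below GNL3. The related NOC2L and NOC3L, which escort precursors through the nucleus, were at 120.5 and 63.3 FPKM (log2 ratio -0.93) and at 24.9 and 20.6 FPKM (log2 ratio -0.27). RRP1B, a paralogue of RRP1, was at 52.4 and 29 FPKM (log2 ratio -0.85), 0.25 above RRP1. The helicases DDX18 and DDX56 had the same ratio of -0.72, at 75.3 and 45.6 FPKM and at 73.4 and 44.4 FPKM. PPAN, an assembly factor that shares a locus with a readthrough transcript, was at 83.1 and 59.1 FPKM (log2 ratio -0.49). The helicases DDX10 and DDX21 differed by 1.26 on the log2 scale.

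Genes of the same pathway outside the 44 were lower less far. Over 4 wider lists of 117 further factors, 116 were tested and 96 had a ratio below 0, with a median log2 ratio of -0.54. Of the 116, 15 (12.9%) were more than 2-fold lower and 0 more than 2-fold higher. Of all genes tested, 41.5% had a ratio below 0, 6.41% were more than 2-fold lower and 17.0% more than 2-fold higher. Among 18 other polymerase I subunits and transcription factors, the median was -0.33, with 14 below 0 and 2 (11.1%) more than 2-fold lower. CD3EAP, a subunit particular to polymerase I, had the largest difference among them, at 48.0 FPKM without Dox and 10.8 with Dox (log2 ratio -2.14). That ratio was lower than the ratio of any of the 44 genes. Next came the shared polymerase subunits POLR2L (129 and 50.4 FPKM, log2 ratio -1.35) and POLR2E (224 and 123 FPKM, log2 ratio -0.86). The mean transcript length of POLR2E was 19.3% longer with Dox, and in CPM its ratio was -0.55.

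The 12 other snoRNP proteins had a median log2 ratio of -0.53 with all 12 below 0 and 0 more than 2-fold lower. This median was lower than the -0.45 of the 5 snoRNP core genes. RUVBL1 and RUVBL2, the paired ATPases that help assemble snoRNPs, were at 124 and 67.9 FPKM (log2 ratio -0.87) and at 216 and 121 FPKM (log2 ratio -0.84), and SHQ1, the chaperone of dyskerin, at 13.5 and 7.69 FPKM (log2 ratio -0.81). Of 42 tested small subunit processome and pre-ribosome factors, 35 lay below 0 and 9 (21.4%) were more than 2-fold lower, with a median of -0.69. The processome subunits NOL6 (35.8 and 12.0 FPKM, log2 ratio -1.57), UTP11 (98.04 and 41.0 FPKM, log2 ratio -1.26) and UTP3 (179.8 and 77.9 FPKM, log2 ratio -1.20) led this list. Of 44 further large subunit and export factors, 35 lay below 0, with a median of -0.52. Only 4 (9.09%) were more than 2-fold lower, a share near the 6.41% of all genes tested. GRWD1, a histone-binding assembly factor, was at 117 and 37.8 FPKM (log2 ratio -1.63), FTSJ3, a methyltransferase, at 63.0 and 25.3 FPKM (log2 ratio -1.32) and the helicase DDX54 at 75.2 and 30.4 FPKM (log2 ratio -1.30). The mean transcript length of GRWD1 was 14.2% longer with Dox, and in CPM its ratio was -1.42.

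The tables also hold a mean transcript length for each gene, which moves when the estimated shares of long and short transcripts of a gene differ between libraries, and on which FPKM depends. It was more than 5% longer with Dox for 8 of the 44 genes, more than 5% shorter for 4 and within 5% for 32. Among the 7706 protein-coding genes with at least 10 FPKM, 22.7% were more than 5% longer and 12.6% more than 5% shorter, so the share of the 44 genes was near the background. Of the 8 longer genes, 4 were polymerase I genes, namely POLR1B (3016 to 3642 bases, 20.8%), UBTF (2919 to 3371 bases, 15.5%), POLR1A (9.78%) and POLR1C (8.19%). NOP56 was 16.7% longer, and NOP2, DKC1 and BYSL were 5.03% to 8.57% longer. The 4 shorter genes were BOP1 (a change of -8.92%), RRP12 (-7.52%), NCL (-5.93%) and PPAN (-5.34%). In CPM, which take no account of length, 42 genes lay below 0 and 16 were more than 2-fold lower, with a median of -0.85, against 40.4% and 5.61% of all genes tested. POLR1A (-0.91 in CPM), NOP56 (-0.85) and NIP7 (-0.96) were then less than 2-fold lower, and POLR1B was at -0.54.

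**Figure D4:**
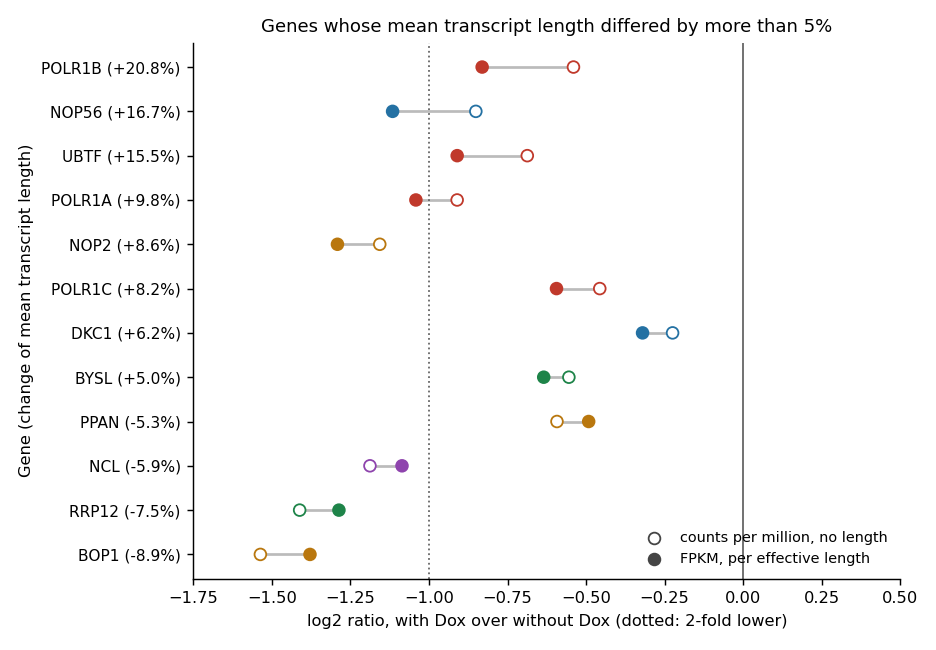
Log2 ratio with Dox over without Dox of the 12 genes whose mean transcript length differed by more than 5% between the libraries, from CPM (open points) and from FPKM (filled points), with colours for the 5 roles as in the plot of single genes. For POLR1A and NOP56 the filled point lies past 2-fold lower and the open point does not, and all points lie below 0.

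Some of these genes share sequence with other annotated genes, and reads of such copies can be split or lost in counting. Of the 45 NPM1 pseudogenes in GENCODE release 29, 6 were in the tables, with at most 5 counts each, beside 112475 and 77788 counts for NPM1. The pseudogene NCLP1 had 9 and 10 counts, DDX18P1 had 1 and 3, and the readthrough PPAN-P2RY11 had 190 and 132, so that PPAN is uncertain to that extent. RRN3, NOP56 and NIP7 have 3 annotated pseudogenes each, of which 0 were among the deposited genes. NOP14 and RRS1 each have 1 antisense gene in GENCODE, also absent from the deposited genes. Without a stated strand setting, reads from such a pair cannot be told apart.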

How the data were processed

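Poly(A) RNA of ARP1 cells carrying the SRD5A1 hairpin was sequenced from both fragment ends (150 bases each, Illumina NovaSeq). The submitters' processing notes list Bowtie 0.12.2, HISAT2 2.1.0, StringTie 1.3.4d and the build hg19, with no role given. The columns are those RSEM writes, and listed transcripts match GENCODE release 29, whose GRCh38 coordinates are given here. The authors deposited expected counts per gene, apportioned among transcripts (14.5% and 15.4% were fractional). Deposited TPM values summed to 1000000 and 999999, and deposited FPKM values to 911506 and 852316. The deposited mean transcript lengths were used as given. The tables also hold annotation text, which was not used.

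The members and lists were chosen with earlier results of these data known. Log2 ratios of FPKM used a pseudocount of 0.1, which understates the difference of low genes, over 14859 genes with at least 1 FPKM in 1 library. The authors named edgeR for their own comparison. It was used here only for TMM factors of rounded counts (edgeR 4.0.16, R 4.3.3), and DESeq2 1.42.0 for size factors, both over genes with at least 10 counts. No test was run and no p-value is given, since there is 1 library per condition. Named were the 44 genes, SRD5A1, and the 3 genes of each of 9 wider lists with the largest ratio in size among those with at least 5 FPKM, apart from items not reported here. Motifs were searched in RefSeq promoters as plain letters. Alternatives covered the pseudocount, the filter and the scaling. Python 3.11.15, numpy 2.4.6, pandas 2.3.3, scipy 1.17.1 and matplotlib 3.10.9 were used, and the ratio and interval steps were tested on simulated data.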

Additional observations from a re-analysis of the deposited data

How the results depend on the processing

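Across 9 alternative settings, 42 of the 44 genes stayed below 0 in each, 13 (BOP1, EBNA1BP2, GNL2, MRTO4, MYBBP1A, NOP16, NOP2, RRP1, RRP12, RRP9, TCOF1, TSR1 and UTP20) were more than 2-fold lower in each, and 0 genes were more than 2-fold higher in any. Among all genes of each setting, the share below 0 ran from 19.0% with no filter to 53.3% with DESeq2 factors. How many of all genes stayed below 0, or more than 2-fold lower, in every setting at once was not counted. The 42 and the 13 therefore have no matching background. At most 651 of the 14859 genes tested can have been more than 2-fold lower in each, the number with a pseudocount of 1. DDX21 and NOB1 changed sign as given with their values. The number more than 2-fold lower was 14 with TPM, 16 with CPM, 17 with a pseudocount of 1, 24 after centring on the median of all genes, and 26 with TMM or DESeq2 factors. TMM and DESeq2 factors shift every log2 ratio by -0.21 and -0.22 by construction, which moves the median of all genes tested from 0.15 to -0.05 and -0.06, while TPM moves it to 0.25. The medians of the 44, the polymerase I and the processing genes were -0.81, -0.77 and -0.82 with TPM, -1.12, -1.08 and -1.13 with TMM, -1.13, -1.09 and -1.14 with DESeq2 factors, and -1.06, -1.02 and -1.07 after centring. In CPM the polymerase I median was -0.61 and its difference from the processing median 0.28, since length is left out. Of the 14859 genes tested, 953 were more than 2-fold lower and 2521 higher. For the same genes the numbers were 651 and 1606 with a pseudocount of 1, 781 and 2834 with TPM, and 833 and 2403 with CPM. They were 1364 and 2083 after centring, 1527 and 1946 with TMM, and 1562 and 1922 with DESeq2 factors. With no filter they were 1897 and 4735 of 57485 genes, and at a minimum of 10 FPKM 496 and 850 of 8428 genes. Depth was not the limit for the 44 genes, whose counting intervals had a median half-width of 0.06 on the log2 scale, whereas the spread between cultures is unknown. No paired analysis was possible because each condition has 1 library.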

Other observations

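The lists below are small, and of all genes tested 41.5% lay below 0, 6.41% were more than 2-fold lower and 17.0% more than 2-fold higher. Of 14 RNA exosome genes, which encode the complex that trims and degrades RNA, 11 had a log2 ratio below 0, with a median of -0.23. Of the 14, 3 (21.4%) were more than 2-fold lower and 1 more than 2-fold higher. EXOSC4 was at 22.7 FPKM without Dox and 6.84 with Dox (log2 ratio -1.72), MPHOSPH6, a cofactor, at 29.2 and 10.9 FPKM (log2 ratio -1.41), and EXOSC7 at 39.97 and 16.8 FPKM (log2 ratio -1.24). A list of 22 polymerase III genes held subunits, initiation factors and the regulator MAF1. Of these 22, 14 lay below 0 and 4 (18.2%) were more than 2-fold lower, with a median of -0.19. POLR3G, the alternative subunit known from stem cells and tumors, was at 37.9 and 9.85 FPKM (log2 ratio -1.93), and POLR3K at 33.9 and 13.5 FPKM (log2 ratio -1.32). Of 8 polymerase II subunits, 7 lay below 0 and 0 were past 2-fold, with a median of -0.32. POLR2I was at 66.5 and 34.8 FPKM (log2 ratio -0.93) and POLR2B at 85.0 and 58.8 FPKM (log2 ratio -0.53), whereas POLR2G was at 89.2 and 129 FPKM (log2 ratio 0.53). Mean transcript length changed by 10.4% for POLR2I and -7.37% for POLR2B, and in CPM their ratios were -0.71 and -0.65.

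In the MYC network, 10 of 11 genes were tested, with a median log2 ratio of 0.61, 3 below 0 and 2 more than 2-fold higher. Of the MAX partners that oppose MYC, MXD1 was at 2.61 FPKM without Dox and 6.81 with Dox (log2 ratio 1.35), MXI1 at 13.9 and 27.0 FPKM (log2 ratio 0.95) and MXD4 at 8.32 and 15.2 FPKM (log2 ratio 0.86). MNT, another such partner, was at 12.99 and 12.6 FPKM (log2 ratio -0.04, interval -0.13 to 0.05). The mean transcript length of MNT was 18.3% longer with Dox, and in CPM its ratio was 0.22, on the other side of 0. MYCN, the other gene past 2-fold, was at 1.29 and 4.51 FPKM, and like MNT it was named after its values were seen. Of the ribosomal protein genes, RPS26 was at 297 and 175 FPKM (log2 ratio -0.76), RPL7A at 114 and 71.5 FPKM (log2 ratio -0.68) and RPL12 at 2074 and 2721 FPKM (log2 ratio 0.39). Processed pseudogenes share sequence with many ribosomal protein genes, so these values are uncertain.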
